A study of Mus musculus with 8 samples.

Results

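The 44 genes described here act in the nucleolus, where ribosomes are put together. They were chosen by symbol from a list of nucleolar and ribosome assembly factors, by a rule that reads no measured value, and each symbol matched exactly 1 of the 32285 genes in the deposited matrices. By role, 5 are RNA polymerase I subunits or regulators (Polr1a, Polr1b, Rrn3, Tcof1, Mybbp1a), 4 are abundant nucleolar chaperones or GTPases and helicases (Npm1, Ncl, Gnl3, Ddx21), and 8 belong to the box C/D and H/ACA snoRNPs (Fbl, Nop56, Nop58, Dkc1, Nhp2, Nop10, Gar1, Nolc1). A further 14 serve the small subunit processome and 40S maturation (Heatr1, Utp20, Wdr43, Wdr75, Nop14, Noc4l, Rrp9, Rcl1, Bms1, Tsr1, Ltv1, Nob1, Rrp12, Ddx10), and 13 serve assembly and maturation of the 60S subunit (Bop1, Pes1, Wdr12, Nop2, Nop16, Noc2l, Noc3l, Ebna1bp2, Brix1, Rrp1, Mrto4, Nip7, Ppan).

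The study asked what loss of Eif3e, a subunit of the translation initiation factor eIF3, does to B cells. Single-cell RNA-seq was run on spleen cells from 2-month-old C57BL/6J mice. cKO mice carried floxed Eif3e, the Cγ1Cre driver and the Rosa26-YFP LSL reporter, while littermate controls carried Cγ1Cre and Rosa26-YFP LSL without floxed Eif3e, so Cre and reporter were shared by all groups. For each genotype, total splenocytes and sorted YFP+ cells were profiled in 2 batches, with 2 to 3 mice pooled in a batch, which gave 8 libraries in 4 groups of 2. Cγ1Cre becomes active when B cells are activated and begin to transcribe the Ighg1 locus, and YFP marks cells in which Cre has recombined the reporter, which need not mean that both Eif3e alleles were lost. The tissue label of every library is spleen, while the protocol names lymph nodes too, and whether the total and YFP+ libraries of a batch shared mice is not stated.

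Ribosome assembly starts when RNA polymerase I, recruited through Rrn3, transcribes the rRNA precursor in the nucleolus. Box C/D snoRNPs (Fbl, Nop56, Nop58) guide methylation of the rRNA, H/ACA snoRNPs (Dkc1, Nhp2, Nop10, Gar1) guide pseudouridylation, and separate sets of factors then cut, fold and export the small and large subunits. Many of these genes are textbook targets of Myc, and in lymphocytes they are known to rise when a resting cell enlarges before division, and to stay high in blasts. A block in ribosome assembly can free ribosomal proteins that bind Mdm2, which stabilises p53.

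Because these genes are described together, their promoters were searched for CACGTG, the canonical E-box that Myc-Max dimers bind, a motif that reads alike on both strands. RefSeq promoters (GRCm38.p6, 250 bases before the start to 50 after it) were at hand for 39 members, and those of Bop1, Rrp12, Fbl, Npm1 and Tcof1 were not used here. The motif occurred in 8 of the 39 members (20.5%), against 8.09% of the 27025 genes with a promoter. A gene counted when any of its promoters held the motif. Before the start alone, 2 members held it (5.13%), against 6.86% of all genes, so most member matches lay just after the start. Windows of 3 members are shown, 250 bases each up to the base before the start, with CACGTG in capitals. Nop2 (chr6:125131633-125131882, plus strand) and Rrn3 (chr16:13780449-13780698, plus strand) were the members with the motif before the start, at -60 and at -215 and -48. Nop58 (chr1:59684756-59685005, plus strand), the member with the largest difference between genotypes in the cycling cells below, held none in this window.
Nop2: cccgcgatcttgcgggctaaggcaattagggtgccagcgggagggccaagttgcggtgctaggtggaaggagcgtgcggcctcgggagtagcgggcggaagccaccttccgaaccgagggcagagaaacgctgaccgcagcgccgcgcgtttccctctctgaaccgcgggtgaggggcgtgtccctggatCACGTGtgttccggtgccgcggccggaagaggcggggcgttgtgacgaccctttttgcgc
Rrn3: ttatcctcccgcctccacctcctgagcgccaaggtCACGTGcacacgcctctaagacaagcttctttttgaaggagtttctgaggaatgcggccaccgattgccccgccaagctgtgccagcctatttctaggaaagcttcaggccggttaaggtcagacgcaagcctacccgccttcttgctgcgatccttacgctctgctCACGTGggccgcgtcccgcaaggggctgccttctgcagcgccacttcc
Nop58: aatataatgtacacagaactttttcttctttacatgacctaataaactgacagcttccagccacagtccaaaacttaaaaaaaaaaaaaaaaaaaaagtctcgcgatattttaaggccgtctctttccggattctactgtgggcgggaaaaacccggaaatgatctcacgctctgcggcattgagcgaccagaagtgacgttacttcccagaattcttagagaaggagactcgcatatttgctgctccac
The other 6 members held the motif after the start, with its first base at 29 in Ltv1, 38 in Utp20, 3 in Pes1, 41 in Mybbp1a, 25 in Tsr1 and 18 in Wdr43. These short stretches show the motif with its flanks, for Ltv1 (chr10:13193094-13193119, minus strand), Utp20 (chr10:88826765-88826787, minus strand), Pes1 (chr11:3963967-3963992, plus strand), Mybbp1a (chr11:72441357-72441376, plus strand), Tsr1 (chr11:74898094-74898119, plus strand) and Wdr43 (chr17:71616222-71616247, plus strand).
Ltv1: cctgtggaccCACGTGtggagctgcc
Utp20: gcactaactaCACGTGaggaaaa
Pes1: ctaggcagggCACGTGcgggaggaag
Mybbp1a: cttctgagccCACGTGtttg
Tsr1: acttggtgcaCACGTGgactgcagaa
Wdr43: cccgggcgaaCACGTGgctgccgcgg
A match is a description of letters and no evidence of binding.

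After filtering, 83704 cells were kept, 9276 to 11652 per library, with 71868375 to 105099466 UMIs per library and a median of 5250 to 6810.5 UMIs per cell. Libraries shared 51 to 102 cell barcodes per pair, at most 0.974% of the smaller library. Cells were clustered without the 44 members, and clusters were named from marker genes, so that "-like" classes below rest on rebuilt names. Cycling cells were B-lineage cells with more than 0.2% of UMIs from 20 cell cycle genes, and 6237 of 67790 B-lineage cells passed, with 2818 (4.16%) lying between 0.1% and 0.4%. Eif3e itself was read at the 3′ end of its transcript, and the sources used here do not name the floxed exon, so its UMIs may miss the deletion. In the YFP+ sort its level in both libraries labelled cKO was below both controls in Myc-high cells and in cycling cells outside the germinal centre (GC) class, but not in resting or GC classes, as given with each class below. In the total sort it was lower in cycling cells outside the GC class too, at 259 and 283 CPM in control and 189 and 232 CPM in cKO libraries, a difference not tested. Xist stood at 524 and 638 CPM in the cKO total and YFP+ libraries of batch 1 and below 0.35 CPM in the other 6, no label gives the sex of the pooled mice, and its part in the results was not tested.

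Across all cells of a library, the 44 genes took 0.354% and 0.424% of UMIs in the control total splenocytes of batches 1 and 2 and 0.383% and 0.452% in the cKO ones. In YFP+ cells the shares were 0.385% and 0.443% for control and 0.612% and 0.683% for cKO. Both cKO YFP+ libraries therefore lay above the other 6. Npm1, the abundant nucleolar chaperone nucleophosmin, showed this pattern in CPM, a gene's UMIs scaled to the same total for every library or class. Its total splenocyte libraries stood at 675 and 919 CPM for control and 719.5 and 973 CPM for cKO, and its YFP+ libraries at 804 and 974 CPM against 1422 and 1647 CPM. Ncl, which encodes nucleolin, stood at 599.7 and 752, 708 and 877, 736 and 871, and 1309 and 1494 CPM in the same order. Nop58, a core box C/D protein, stood at 98.3 and 101, 99 and 122, 106 and 123, and 209 and 264 CPM. For each of these 3 genes the lower cKO YFP+ library was above every other library. Fbl, the box C/D methyltransferase, stood at 117 and 145, 126 and 144, 129.6 and 153, and 190.3 and 203 CPM. Ddx21, a nucleolar RNA helicase, stood at 137 and 132, 147 and 147, 124 and 114, and 178 and 184 CPM. Nolc1, a snoRNP chaperone, stood at 79.0 and 103, 85.1 and 106, 91.6 and 113, and 149 and 161 CPM. For these 3 genes too both cKO YFP+ libraries were highest, although Ddx21 was lowest in the control YFP+ ones. Nop10, an H/ACA protein, stood at 181 and 264, 219 and 269, 208 and 302, and 292 and 333 CPM. Tcof1, a cofactor of rRNA transcription, stood at 122 and 132, 144 and 160.3, 132 and 152, and 160.5 and 152 CPM. For Nop10 and Tcof1 the lower cKO YFP+ library did not exceed every other library. Npm1 (mean of 1017 CPM) and Ncl (918 CPM) led the members over all libraries, followed by Nop10 (258), Fbl (151), Ddx21 (145), Tcof1 (144), Nop58 (140.3) and Nolc1 (111), in UMIs counted at transcript ends and not scaled by length. Levels over all cells mix the classes, whose sizes differed between genotypes, so the classes are taken one by one.

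The share of UMIs from the 44 genes differed several-fold between classes in every group of libraries. Resting follicular B-like cells of the YFP+ sort gave 0.259% and 0.330% in control against 0.277% and 0.334% in cKO libraries, and Myc-high activated B-like cells outside the cycle gave 0.863% and 1.01% against 0.928% and 1.07%. Within a library, the Myc-high share was 3.19 ± 0.20 times the resting share in control YFP+ and 3.29 ± 0.09 times in cKO YFP+ cells (SD, n = 2 each), and 3.02 ± 0.03 and 2.99 ± 0.12 times in the total sort. GC B-like cells outside the cycle lay between them, at 0.450% and 0.470% in control and 0.605% and 0.532% in cKO YFP+ libraries, or 1.58 ± 0.22 and 1.89 ± 0.42 times resting. Cycling GC B-like cells took 0.619% and 0.566% in control and 0.755% and 0.756% in cKO YFP+ libraries, 1.29 ± 0.12 and 1.34 ± 0.12 times their non-cycling counterparts. Cycling B cells outside the GC class were where the genotypes parted most: 0.591% and 0.530% in control against 1.15% and 1.24% in cKO YFP+ libraries. Plasma-like cells, which make large amounts of immunoglobulin, held the lowest share of any B-lineage class plotted, 0.134% and 0.150% in control and 0.157% and 0.165% in cKO YFP+ libraries. These classes are clusters of the same cells, so differences between them are descriptions and carry no test.

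**Figure D1:**
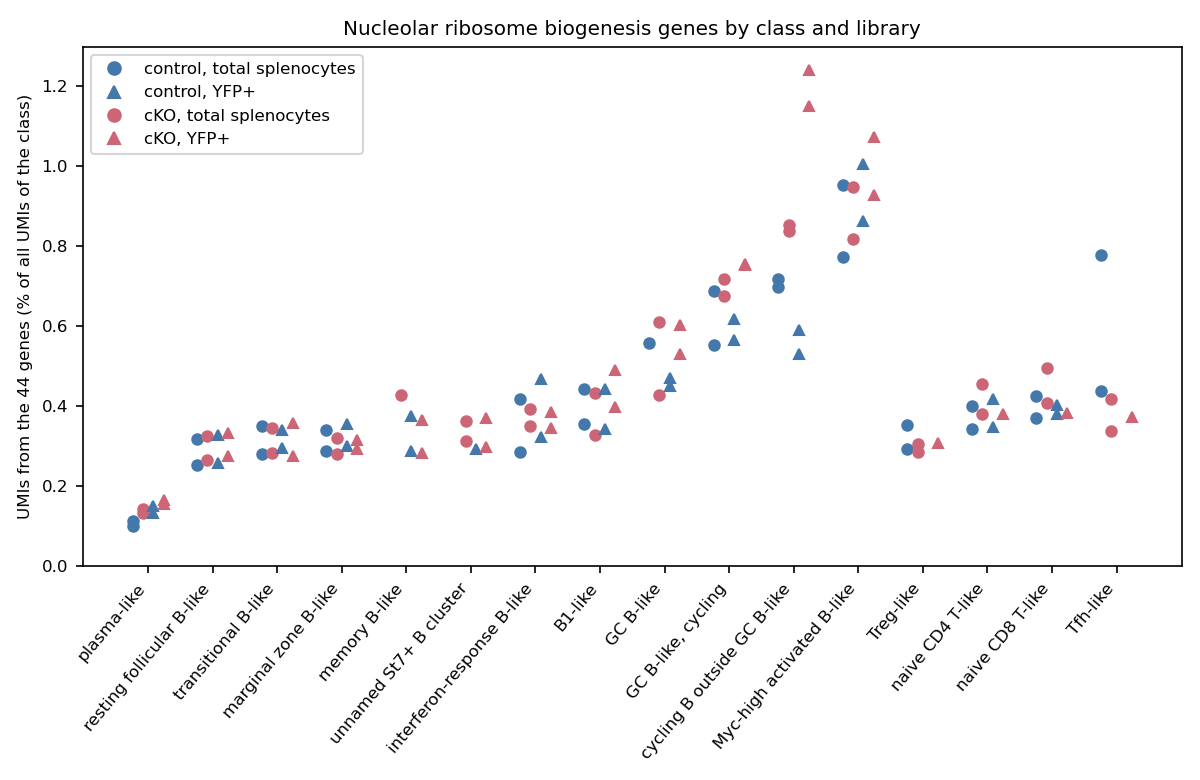
Percent of all UMIs that came from the 44 genes (y axis), by cell class (x axis), with 1 point per library, circles for total splenocytes, triangles for YFP+ cells, blue for control and red for cKO. Classes with under 20 cells in a library have no point there, and B cell classes are outside the cycle unless named as cycling. Plasma-like cells lie lowest, Myc-high and cycling B cells highest, and only for cycling B cells outside the GC class does a wide gap separate the YFP+ genotypes (0.591% and 0.530% against 1.15% and 1.24%).

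Myc and the share did not run in parallel over all classes. Marginal zone B-like cells, innate-like cells poised for rapid responses, held 267 and 366 CPM of Myc in control YFP+ libraries, about as much as the 251 and 325 CPM of Myc-high activated cells, yet gave only 0.302% and 0.355% of UMIs to the 44 genes. In GC B-like cells outside the cycle Myc stood at 38.6 and 68.1 CPM, below the 81.6 and 160 CPM of resting cells from the same libraries, although the share was higher. Myc itself was among the 9 markers by which the Myc-high class was named, so its level there is not a finding. The clusters behind the Myc-high and cycling classes also differed in Eif3e. Cluster 10, found almost only in cKO YFP+ cells and led by Fabp5, Tmem176b and Timd2, took 1.05% and 1.14% outside the cycle, with Eif3e at 157 and 147 CPM. In its cycling cells the share was 1.34% and 1.55%, with Eif3e at 97.0 and 90.9 CPM, while plasma-like cells of control YFP+ libraries stood at 90.8 and 111 CPM. The median cycling cell of cluster 10 held 40560 and 39860 UMIs in the 2 batches, against 19988 and 14175 for cycling non-GC cells of the control YFP+ libraries.

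**Figure D2:**
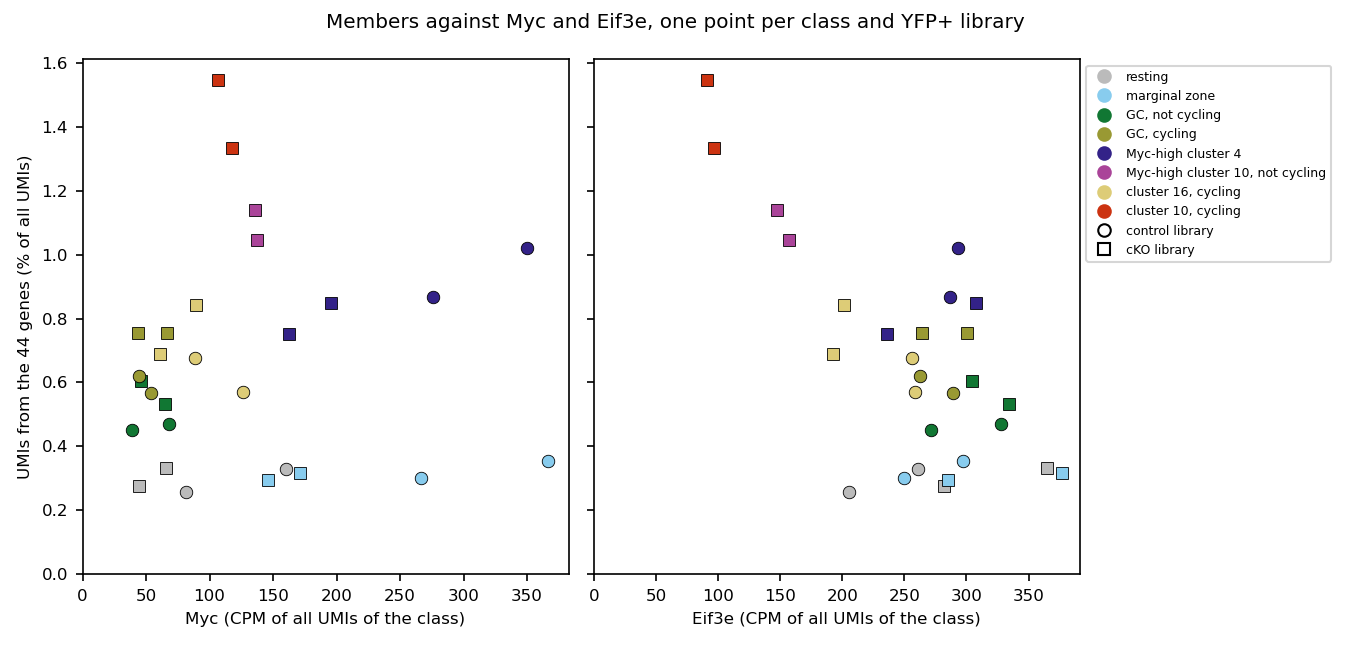
Percent of UMIs from the 44 genes (y axes) against Myc (left, CPM) and Eif3e (right, CPM), with 1 point per class and YFP+ library for resting, marginal zone and GC B-like cells and clusters 4, 10 and 16, colour for class, circles for control and squares for cKO. Control marginal zone points (mean Myc 316.5 CPM) sit far right on the Myc axis at low shares. Those of cKO libraries (158.5 CPM) lie further left, at low shares too. The cycling cluster 10 points combine the highest shares (1.34% and 1.55%) with the lowest Eif3e of these classes (97.0 and 90.9 CPM). Plasma-like cells, with Eif3e as low, are not drawn. Points of a library share depth and mice, so no correlation is given.

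Gene by gene, nearly every member was higher in Myc-high than in resting cells of the same library. All 44 were higher in each total splenocyte library, and 43 of 44 in each pair of YFP+ libraries, the exception in both genotypes being Rrn3, the factor that recruits RNA polymerase I, at 0.90 to 1.24 times resting over the 8 libraries. Rrn3 stood at 33.9 and 35.6 CPM in resting and 39.4 and 32.6 CPM in Myc-high control YFP+ cells. The polymerase subunit gene Polr1b, by contrast, was 3.65 to 5.90 times resting, so the polymerase group was itself uneven, with Tcof1 at 1.19 to 1.62 times. Among 60S factors, Mrto4 was 4.09 to 6.21 times, Ppan 4.27 to 6.04 times and Nop16 4.37 to 6.51 times resting. Mrto4, a P0-like factor of 60S maturation, went from 16.5 and 20.7 CPM to 85.9 and 110 CPM in control YFP+ libraries. Among 40S factors, Bms1 (1.11 to 1.44 times) and Ddx10 (1.22 to 1.61 times) moved least, and Rrp9 (3.28 to 3.88 times) most by mean. Among snoRNP genes, Nhp2 was 3.81 to 5.55 times, Nop58 3.23 to 6.47 times and Nop10 only 1.60 to 2.84 times resting. By mean over 2 libraries, Ppan was highest in control YFP+ and cKO total, Nop58 in cKO YFP+ and Nhp2 in control total libraries.

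Rrn3 was also the lowest member, relative to resting, in cycling B cells outside the GC class and in GC B-like cells outside the cycle, in each group of libraries. In cycling B cells outside the GC class of control YFP+ libraries, 31 of 44 members were above resting in both libraries, with Rrn3 at 0.70 and 0.45 times, Ddx10, a DEAD-box helicase of 40S assembly, at 0.59 and 0.73 times, and Nhp2 highest at 4.56 and 3.00 times. In cKO YFP+ libraries 43 of 44 were above resting, led by Mrto4 at 8.82 and 6.85 times and Nop58 at 7.39 and 7.27 times. GC B-like cells outside the cycle had 31 members above resting in control and 39 in cKO YFP+ libraries, with Rrn3 lowest and Nop16 highest by mean in both. Plasma-like cells had 0 members above resting in both control YFP+ libraries and 1, Gnl3, a nucleolar GTPase known as nucleostemin, in both cKO ones.

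**Figure D3:**
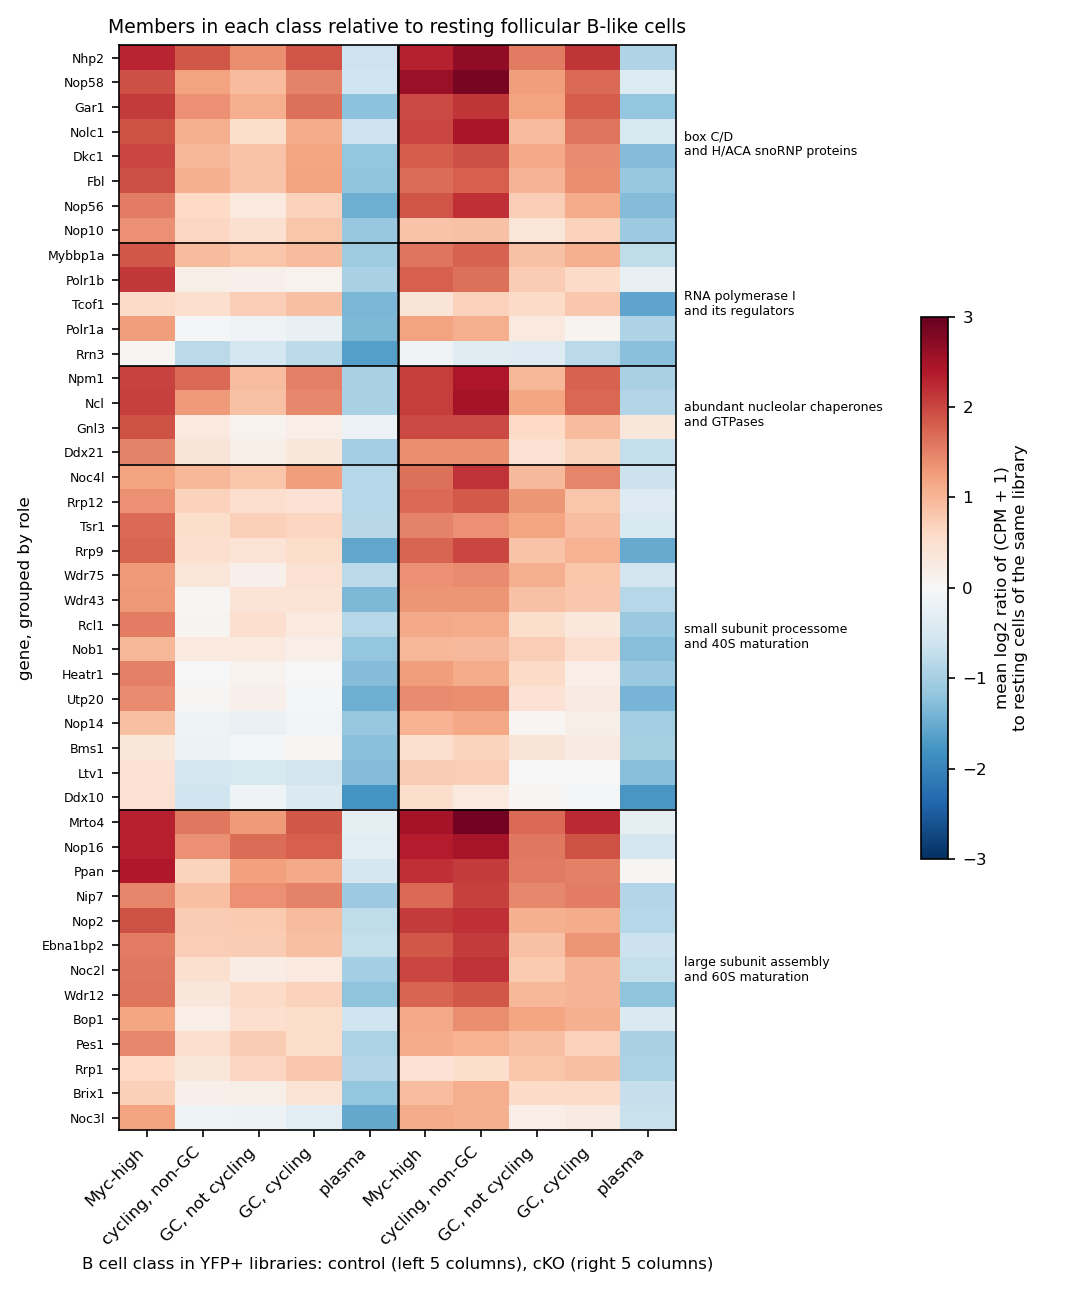
Heat map of the 44 genes (rows, grouped by role) in 5 B cell classes of YFP+ libraries (columns, control left, cKO right), coloured by the mean over 2 libraries of log2 of (CPM + 1) relative to resting follicular B-like cells of the same library. Red is higher than resting and blue lower. The cKO column of cycling non-GC cells is the darkest, Rrn3 stays pale or blue throughout, and plasma columns are blue for nearly all genes.

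Genotypes were then compared class by class, on UMI counts summed per class and library, with edgeR's quasi-likelihood test and Benjamini-Hochberg adjustment over all genes tested, at an adjusted p of 0.05. CPM in these comparisons are scaled by TMM, and all 44 members passed the filter on low counts in every comparison. In resting follicular B-like cells of the YFP+ sort, 0 members were called, where 0.195% of all 11804 genes tested were called (0.127% as higher in cKO and 0.0678% as lower), and 1 member had an unadjusted p below 0.05 (888 of all genes did). DESeq2 also called 0 members. Rcl1, an endonuclease-like 40S factor, was that member, at 23.2 and 25.4 CPM in control and 35.3 and 37.4 CPM in cKO libraries, with no overlap (log2 fold change 0.58, SE 0.21, adjusted p = 0.528). Npm1 stood at 361 and 565 against 486 and 727 CPM, and Ncl at 386 and 537 against 464 and 637 CPM, where batch 2 exceeded batch 1 in both genotypes and the groups overlapped. Nhp2, the H/ACA protein, overlapped too, at 28.7 and 43.7 against 34.2 and 55.9 CPM, while Tcof1 did not (103 and 125 against 125 and 148 CPM, log2 fold change 0.26, SE 0.25). Over the 44 members, 3 had both cKO libraries above both control libraries (16.7% of all genes did) and 3 had both below (15.9%), and the median log2 fold change was 0.06, against 0.01 over all genes. The share of UMIs in cKO was 1.07 and 1.01 times that of control within batches 1 and 2.

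The same class in total splenocytes gave 0 members called, 0 with an unadjusted p below 0.05 and 0 in DESeq2, where 0.136% of 12500 genes were called by edgeR (0.128% as higher and 0.00800% as lower). Rcl1 again had no overlap, at 23.6 and 22.3 CPM in control and 33.3 and 28.6 CPM in cKO (log2 fold change 0.43, SE 0.18), and so had Pes1, of the PeBoW complex of 60S assembly, at 32.3 and 37.9 against 38.6 and 46.9 CPM. In all, 7 members had both cKO libraries above both controls (15.2% of all genes) and 1 had both below (14.4%). With the batch as a replicate block, which takes the shared batch difference out, 3 members were higher in cKO in the YFP+ sort (6.50% of all genes were): Rcl1 (0.58, SE 0.12, adjusted p = 0.00562), Npm1 (0.40, SE 0.09) and Nop10 (0.34, SE 0.10). In the total sort the block gave 10 members higher, where 8.52% of all genes were: Ncl, Nop10, Nip7, Ddx21, Pes1, Nhp2, Mybbp1a, Tsr1, Tcof1 and Rcl1, with log2 fold changes of 0.22 (Ncl) to 0.43 (Nhp2). The paired differences were thus small, at most 0.58. Here and in each class below, the block fit of 4 libraries leaves 1 degree of freedom for the error of a gene. Its calls lean on the error pooled over genes and are to be read with that limit. A test of whether the genotype difference itself differed between sorts called 0 members and 0 of 12756 genes, with 0 members (151 genes) at an unadjusted p below 0.05, and the smallest member p values came with differences of -0.33 (SE 0.24) for Bop1, 0.33 (0.25) for Nop2, -0.29 (0.22) for Polr1a and -0.26 (0.33) for Rrp9. DESeq2 called 0 members in that test too. The sort test held no term for batch or mouse pool. Same-batch libraries deviated together in this class (correlations of 0.69 in the YFP+ and 0.75 in the total sort). The batch difference thus stayed in its error, and a count of 0 does not show that the sorts were alike.

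Resting cells of the genotypes came from different clusters: 96.5% of the control YFP+ class was cluster 1 and 93.8% of the cKO YFP+ class was cluster 0. In the total sort 97.6% of the control class was cluster 1 and 85.6% of the cKO class was cluster 0. Eif3e was not lower in cKO resting cells, at 191 and 260.1 CPM in control and 281 and 396 CPM in cKO YFP+ libraries (log2 fold change 0.59, SE 0.30, adjusted p = 0.79, and called as higher with the block). Myc stood at 75.9 and 159 CPM in control and 44 and 71.3 CPM in cKO YFP+ libraries (-1.03, SE 0.40, adjusted p = 0.59), and was called as lower with the block (-0.98, SE 0.11, adjusted p = 0.000159). Summed markers in these YFP+ cells were also lower in cKO without overlap, at 22 to 28.3 against 4.55 to 10.6 CPM for conventional dendritic cells over 6 genes (Clec9a and Xcr1 at 0 in all 4 libraries), 280 to 305 against 189 to 238 CPM for plasmacytoid dendritic cells over 5, 31.1 to 36.0 against 17.3 to 27.7 CPM for myeloid cells over 8 and 8042 to 8122 against 7648 to 7874 CPM for B cells over 6, and their part in the class values was not tested. In the total sort conventional and plasmacytoid dendritic cell markers were lower too, at 14.68 to 14.71 against 4.12 to 9.57 CPM and 272 to 305 against 201 to 240 CPM. So were myeloid (59.3 to 62.9 against 42.5 to 53.3 CPM) and B cell markers (8585 to 8616.5 against 8127 to 8333 CPM). Plasma cell markers over 7 genes were higher there, at 297 to 373 against 408 to 531 CPM. The part of these values was not tested either. A large unnamed B cluster (cluster 2, led by Klhdc2, Scn3a and St7) was nearly absent from control libraries. Its cells outside the cycle made up 24.6% and 38.8% of all cells in the cKO YFP+ libraries. They fell in none of the classes tested as first drawn. In those libraries they gave 0.297% and 0.370% of UMIs to the 44 genes, 1.09 ± 0.03 times resting (SD, n = 2).

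In Myc-high activated B-like cells of the YFP+ sort, 0 of 44 members were called by edgeR, where 7.35% of 11763 genes were (4.22% as higher and 3.13% as lower), and 2 members had an unadjusted p below 0.05 (2378 of all genes). DESeq2 called 1. Nop58 had the smallest p, at 229 and 243 CPM in control and 354 and 534 CPM in cKO libraries, without overlap (log2 fold change 0.91, SE 0.31, adjusted p = 0.0971). Noc4l, a 40S factor, followed at 24 and 31.3 against 35.3 and 47.1 CPM (0.58, SE 0.27, adjusted p = 0.244). Both cKO libraries were above both control libraries for these genes, and also for Rrp12 (19.3 and 19.1 against 22.7 and 29.4 CPM) and the 60S factor Nip7 (79.5 and 91.1 against 97.8 and 131 CPM). Npm1, at 1503 and 2270 against 2113 and 2936 CPM, and Fbl, at 291 and 384 against 292 and 344 CPM, overlapped. Over all members 8 were above without overlap (26.6% of all genes) and 5 below (23.0%), with a median log2 fold change of 0.03 against 0.00 over all genes. Counted with the replicate block, 7 members were higher in cKO, where 13.1% of all genes were: Nop58 (0.88, SE 0.14, adjusted p = 0.000124), Noc4l (0.57), Npm1 (0.43), Mrto4 (0.41), Nip7 (0.41), Nop56 (0.40) and Ebna1bp2 (0.38), a 60S factor.

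This class was made of different clusters in the genotypes: 93.1% of control YFP+ cells were cluster 4, whereas in cKO 51.3% were cluster 4 and 45.7% cluster 10. In cluster 4 alone, led by Mettl1, Ccnd2, Srm and Pus7, the share of UMIs from the 44 genes was 0.868% and 1.02% in control and 0.750% and 0.848% in cKO, or 0.864 and 0.831 times control within batches. There 0 members were called, where 1.16% of all genes were, and their median log2 fold change was -0.16, so the direction of the median turned with the cluster makeup. Eif3e in the whole class was 257 and 299 CPM in control and 186 and 197 CPM in cKO (-0.54, SE 0.28, adjusted p = 0.316, called as lower with the block). Myc, which helped to name the class, stood at 228 and 331 against 144 and 159 CPM (-0.88, SE 0.30, adjusted p = 0.092). Without TMM, mean Myc was 145.7 CPM in the cKO YFP+ class and 136.4 CPM in its cluster 10 cells. It was 158.5 CPM in cKO marginal zone B-like, 120.7 CPM in control resting and 54.9 CPM in cKO resting cells of that sort. Summed markers of myeloid cells were 52.8 to 61.0 CPM in control and 9.24 to 23.3 CPM in cKO libraries of this class over 8 genes, of plasmacytoid dendritic cells 314 to 374 against 220 to 241 CPM over 5 genes, and of B cells 4965 to 5308 against 3463 to 4051 CPM over 6 genes, and no gene of these lists was at 0 in all 4 libraries. Their part in the class values was not tested.

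Of the other lists, the p53 response genes had 4 of 9 tested called as higher in cKO, and snoRNA host genes 4 of 16, while 2 of 33 other large subunit genes and none of the 11 other RNA polymerase I, 34 other small subunit, 12 RNA exosome and 8 tested Myc network genes were called. The p53 targets Phlda3 (1.35 and 0 CPM in control, 20.5 and 43.7 in cKO), Cdkn1a, the cell cycle inhibitor p21 (4.74 and 2.80 against 20.3 and 62.3 CPM), and Ccng1 (31.1 and 26.6 against 86.9 and 161 CPM) rose without overlap, with log2 fold changes of 3.41 (SE 0.56, adjusted p = 0.00282) for Cdkn1a and 2.10 (SE 0.33, adjusted p = 0.00139) for Ccng1. For Cdkn1a the direction turned in cluster 4 alone, at a log2 fold change of -1.40. In total splenocytes this class gave 0 members called, where 0.178% of 10696 genes were, 0 at an unadjusted p below 0.05 and 0 in DESeq2. Nop58 stood at 219 and 263 CPM in control and 224 and 295 CPM in cKO there, and Eif3e at 249 and 288 against 254 and 286 CPM, both overlapping. With the block 1 member, Tcof1, was higher (0.33, SE 0.08), where 2.25% of all genes were, from 177 and 192 CPM in control to 218 and 244 CPM in cKO.

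Whether the genotype difference in Myc-high cells differed from that in resting cells was tested as an interaction over the 8 class sums of the YFP+ libraries. It called 3 members as more positive in Myc-high cells and 1 as more negative, where 13.5% of 12784 genes were called. Nop58 (interaction 0.71, SE 0.14, adjusted p = 0.000786), Noc2l (0.47, SE 0.13, adjusted p = 0.0171) and Nop56 (0.41, SE 0.13, adjusted p = 0.0271) were positive, and Nop10 (-0.47, SE 0.13, adjusted p = 0.0144) was negative. Of the 8 snoRNP genes 2, both box C/D, were thus called as positive and 1, an H/ACA gene, as negative. A split by snoRNP type was not tested. In resting cells Nop10 stood at 140.1 and 249.97 CPM in control and 193 and 289.9 CPM in cKO, and in Myc-high cells at 372 and 629 against 398 and 463 CPM. With 4 of 44, members were called no more often than the 13.5% of all genes. Fewer members were called when either control library was left out and more when either cKO library was, in fits with 1 library in that group. The 3 positive members turned negative when cluster 4 stood for the Myc-high class, at -0.077, -0.062 and -0.11, and then 8 members were called, all negative, where 5.64% of all genes were called. Eif3e was called as negative (-1.07, SE 0.14, adjusted p = 4.9e-06). Among other lists, 5 of 10 p53 response genes, 4 of 16 snoRNA host genes, 3 of 34 other small subunit, 3 of 33 other large subunit and 1 of 11 other RNA polymerase I genes were positive, Cdkn1a (5.36), Zmat3 (1.86) and Ccng1 (1.76) leading. Zmat3 (-0.080) and Ccng1 (-0.032) also turned with cluster 4 in place of the class. The 4 negative genes were Polr1e (-0.85), Mxd4 (-0.81), Mdn1 (-0.60), which encodes a giant ATPase of 60S assembly, and Ddx54 (-0.59), a helicase gene named after its value was seen.

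In cycling B cells outside the GC B-like class, 41 of 44 members rose in cKO YFP+ cells and none fell, where 12.9% of 11690 genes rose and 25.9% were called in either direction. Both cKO libraries were above both control libraries for 43 members (33.5% of all genes) and below them for none (31.7%), and the median log2 fold change was 1.11 against -0.01 over all genes. Nop58 rose most, from 149 and 144 CPM in control to 461 and 568 CPM in cKO (log2 fold change 1.81, SE 0.18, adjusted p = 0.000278). DESeq2 called 39 members, with its share of all genes not given here, and the fit with the replicate block 42 (where 36.6% of all genes were called). The count was not kept without cluster 10, which control libraries hardly held. Without its cells 0 members were called by edgeR, where 4.64% of all genes were. There 11 members had an unadjusted p below 0.05, and the median log2 fold change was 0.31, with Nop58 at 0.80. That fit also dropped 47.2% of the cKO cells of the class, and what lay behind its fewer calls was not tested.

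All 8 snoRNP genes rose in these cells. After Nop58, its partner Nop56 went from 109 and 103 CPM to 291 and 347 CPM (1.59, SE 0.18, adjusted p = 0.000431), and Nolc1 from 154 and 128 to 329 and 348 CPM (1.26, SE 0.18). Fbl rose less, from 188 and 185 to 331 and 339 CPM (0.85, SE 0.16), and Nop10 least in the group, from 272 and 321 to 425 and 435 CPM (0.54, SE 0.17, adjusted p = 0.0461). Box C/D and H/ACA members were both among them, as Dkc1, the pseudouridine synthase dyskerin, rose from 62.6 and 68.0 to 132 and 151 CPM (1.11, SE 0.17).

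All 4 nucleolar chaperones, GTPases and helicases rose. Ncl went from 1192 and 1071 CPM to 2781 and 3212 CPM (1.40, SE 0.17, adjusted p = 0.000574), and Npm1 from 1561 and 1436 to 2954 and 3268 CPM (1.05, SE 0.16, adjusted p = 0.00194). In both genes the lower cKO library stood far above the higher control library. Gnl3 (84.7 and 82.1 against 208 and 246 CPM, 1.44) and Ddx21 (138 and 142 against 275 and 292 CPM, 1.02) rose with them.

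Of the 5 polymerase genes 3 rose: Polr1b (9.15 and 7.2 against 23.1 and 21.5 CPM, 1.44, SE 0.23), Mybbp1a (130.2 and 103 against 230.0 and 229 CPM, 0.98) and the largest subunit gene Polr1a (31.0 and 23.5 against 52.5 and 49.6 CPM, 0.90). Rrn3 did not pass, at 22.4 and 16.4 CPM in control and 25.6 and 22.2 CPM in cKO, where the groups overlapped (0.30, SE 0.22, adjusted p = 0.352). Tcof1 did not pass either, at 152 and 181 against 225 and 209 CPM (0.38, SE 0.17, adjusted p = 0.133), although its groups did not overlap. The 14 small subunit genes all rose, from 0.55 (Bms1, 59.0 and 54.6 against 81.9 and 84.3 CPM) to 1.54 (Rcl1, 22.4 and 31.1 against 79.1 and 76.3 CPM), with Utp20 at 1.35 and Heatr1 at 1.17. Of the 13 large subunit genes 12 rose, led by Wdr12 of the PeBoW complex (34.2 and 32.4 against 97.7 and 107 CPM, 1.62, SE 0.18, adjusted p = 0.000404), the rRNA methyltransferase gene Nop2 (17.4 and 15.4 against 49.2 and 50.5 CPM, 1.60, SE 0.19) and Mrto4 (60.8 and 52.7 against 156 and 167 CPM, 1.51, SE 0.17). Wdr12 rose more than its complex partners Bop1 (1.06) and Pes1 (0.71), a difference not tested. Rrp1 was the large subunit gene that did not pass (102 and 98.8 against 129 and 121 CPM, 0.32, adjusted p = 0.179).

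**Figure D4:**
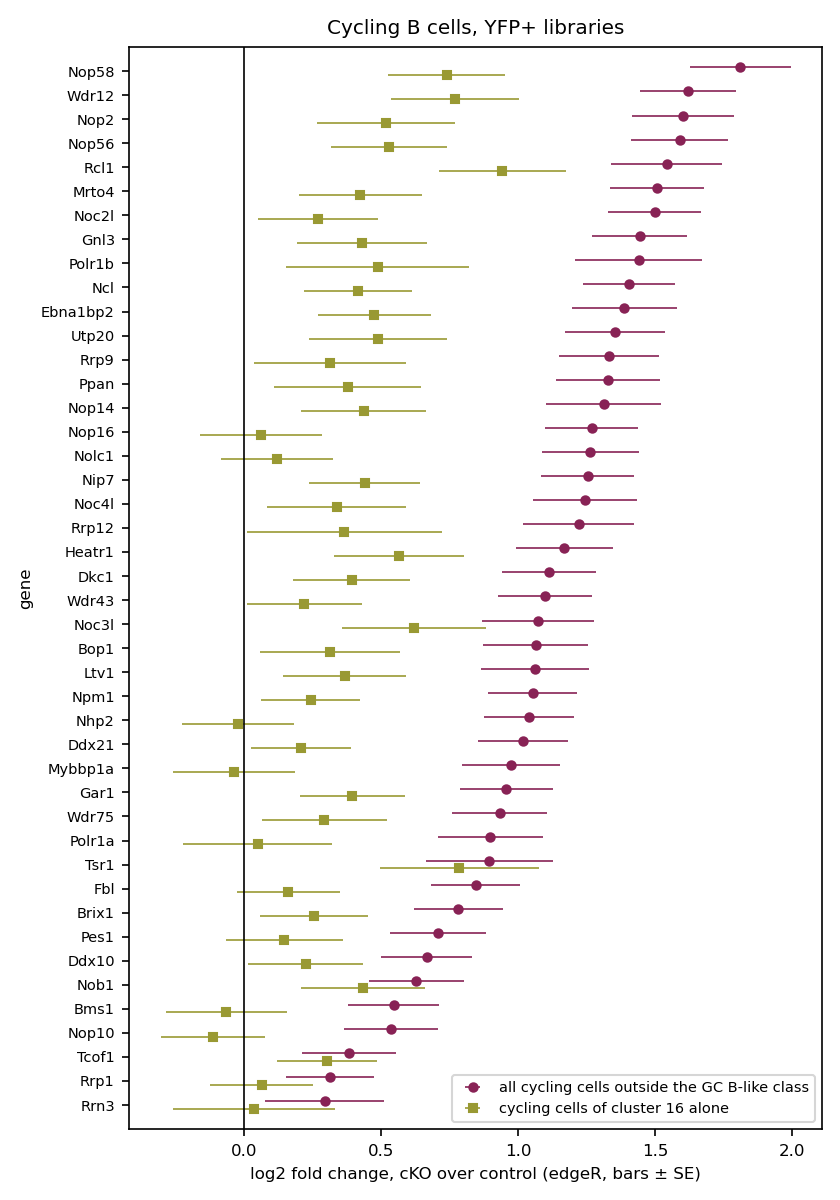
Log2 fold change of cKO over control (x axis, bars ± SE from edgeR) for the 44 genes (y axis, ordered by size) in cycling B cells of YFP+ libraries, for all cycling cells outside the GC B-like class (purple circles) and for cycling cells of cluster 16 alone (green squares). Circles run from 0.30 (Rrn3) to 1.81 (Nop58), and the squares of nearly all genes lie closer to 0.

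Genes of the same pathway outside the 44 went the same way in part: 24 of 33 other large subunit genes, 20 of 34 other small subunit genes, 11 of 15 tested snoRNA host genes, 5 of 12 RNA exosome genes and 3 of 11 other RNA polymerase I genes rose, and none of these fell. Snhg15 (18.9 and 17.0 against 289.7 and 217 CPM, 3.82) led the snoRNA hosts. Of 9 tested Myc network genes 1 rose and 3 fell, namely Mxd3 (-1.15, but 0.024 without cluster 10), Mnt (-1.10) and Mxd1 (-0.94), which encode Max partners that oppose Myc. Myc was not called, at 79.1 and 123 CPM in control and 101 and 98.6 CPM in cKO (-0.02, SE 0.21, adjusted p = 0.968), with overlap. Of 9 tested p53 response genes 6 rose, among them Phlda3 (1.18 and 0.981 against 32.2 and 30.1 CPM) and Cdkn1a (4.43 and 2.29 against 36.2 and 45.7 CPM, 3.58, SE 0.30). Eif3e fell, from 244 and 291 to 128 and 144 CPM (-0.98, SE 0.18, adjusted p = 0.00391).

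The cells behind this comparison differed in kind. Control cells were 43.2% cluster 16, 42.4% cluster 8 and 13.3% cluster 13. The cKO cells were 47.2% cluster 10, 38.0% cluster 16, 11.1% cluster 8 and 2.9% cluster 13. These are shares of cells, while the test sums UMIs. Cluster 13 was unnamed, and its 32 cells in the control library of batch 2 held 4.91 UMIs from the 44 genes per cell. Clusters 16 and 8 held at least 20 cycling cells in every YFP+ library. Cluster 16 was led by replication histone genes such as Hist1h3c and Hist1h2ae and joined the Myc-high class by its marker score, although none of the 9 markers was among its leading genes and its cycling cells held 88.6 and 127 CPM of Myc in control YFP+ libraries, within the resting range. In cycling cells of cluster 16 alone, 1 member was called, Rcl1 (0.94, SE 0.23, adjusted p = 0.0369), where 4.22% of all genes were called, and the members' median log2 fold change was 0.35. The share of UMIs from the 44 genes in that cluster was 0.677% and 0.570% in control and 0.689% and 0.841% in cKO, or 1.02 and 1.48 times control within batches, and in the total sort 0.776 and 0.901 times. In cycling cells of cluster 8, an unnamed B cluster with 43 and 117 control and 51 and 67 cKO cells, 0 of 43 members tested were called by edgeR, where 2.63% of all genes were, and 5 had an unadjusted p below 0.05. Their median log2 fold change was 0.35, with Nop58 at 0.84, and the share was 0.370% and 0.510% in control and 0.588% and 0.624% in cKO, or 1.59 and 1.22 times control. When classes were built from control cells alone and cKO cells assigned to them, 0 members were called by edgeR in the cycling non-GC class, where 2.85% of all genes were called, 5 had an unadjusted p below 0.05 and the median was 0.19. The count of 41 thus held in none of these 4 settings, while each median was above 0. Shares of all genes at an unadjusted p below 0.05 are not given for these settings. Cluster 16 alone, cluster 8 alone and the class without cluster 10 all leave out cluster 10 by construction. Classes built from control cells instead reassigned cKO cells. More cKO cells then fell in the GC B-like classes, where members were called as higher, as given below with the share of all genes. Which cells moved was not tested.

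Other values moved with genotype in this class. Summed markers of myeloid cells were 68.8 to 109 CPM in control and 6.75 to 15.2 CPM in cKO libraries over 8 genes, of plasma cells 985 to 1288 against 548 to 633 CPM over 7 genes, of plasmacytoid dendritic cells 393 to 470 against 201 to 235 CPM over 5 genes, and of B cells 3831 to 4760 against 2539 to 2748 CPM over 6 genes. Of these lists no gene was at 0 in all 4 libraries. Conventional dendritic cell markers were lower too, at 28.1 to 34.6 against 15.9 to 27.1 CPM over 6 genes (Clec9a at 0 in all 4 libraries). Of control cells in batch 2, 5.88% were marked as doublets, against 0.188% to 0.641% in the other 3 libraries. The threshold for marking was taken from the total libraries. Without marked doublets 40 members were called, with the share of all genes not given here. In the total sort the share of UMIs in this class was 0.698% and 0.719% in control and 0.853% and 0.839% in cKO libraries, from 54 to 72 cells each. UMIs from the 44 genes per cell in the YFP+ sort were 122 and 74.9 in control and 357 and 360.5 in cKO. The part of these values in the result was not tested, apart from the doublets.

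GC B-like cells of the YFP+ sort were fewer in cKO, with 94 and 58 cells outside the cycle against 737 and 1192 in control, and 270 and 155 cycling cells against 929 and 2216. Outside the cycle 0 members were called by edgeR, where 1.27% of 10270 genes were, 2 had an unadjusted p below 0.05 (688 of all genes) and DESeq2 called 0. Wdr75, a small subunit processome gene, had the smallest p, at 34.9 and 40.6 CPM in control and 60.2 and 69.8 CPM in cKO (0.77, SE 0.33, adjusted p = 0.496). It was the 1 member called with the block (0.78, SE 0.23, adjusted p = 0.0285), where 1.56% of all genes were higher. Rrp12 (11.1 and 9.82 against 20.4 and 17.8 CPM), Mrto4 (42.8 and 49.1 against 70.3 and 66.8 CPM) and Rcl1 (39.3 and 33.3 against 57.4 and 46.0 CPM) also had no overlap. In all, 28 members had both cKO libraries above both controls and none below, where 15.5% and 16.6% of all genes were, with a median log2 fold change of 0.26 against -0.01. Among the abundant members, Ncl (806 and 927 against 1227 and 1168 CPM) and Npm1 (799.9 and 985 against 1232 and 1064 CPM) were in that count, and Nop10 and Tcof1 were not. In the total sort, where batch 1 alone had enough control cells (25, against 45 in cKO), the share of UMIs went the other way, at 0.557% in control and 0.428% in cKO, or 0.769 times. Summed plasma cell markers in the YFP+ class were 1512 to 1876 CPM in control and 1946 to 2354 CPM in cKO over 7 genes, none of them at 0 in all 4 libraries. Markers of B cells (6770 to 7080 against 5542 to 6080 CPM over 6 genes), of conventional (58.7 to 82.4 against 43.4 to 58.1 CPM over 6, Cd209a at 0 in all 4 libraries) and plasmacytoid dendritic cells (269 to 438 against 221 to 238 CPM over 5, Siglech at 0) and of myeloid cells (8.31 to 8.40 against 2.89 to 3.75 CPM over 8) were lower in cKO. The part of these values was not tested.

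Cycling GC B-like cells gave 0 members called by edgeR, where 1.05% of 11691 genes were (0.744% as higher), 6 with an unadjusted p below 0.05 (1018 of all genes) and 0 in DESeq2. Mrto4 had the smallest p, at 69.9 and 68.6 CPM in control and 95.9 and 107 CPM in cKO (0.55, SE 0.18, adjusted p = 0.32). Npm1 stood at 1315 and 1344 against 1851 and 2074 CPM (0.56, SE 0.22), Noc2l at 54.4 and 45.7 against 75.4 and 68.5 CPM (0.53) and Rcl1 at 33.0 and 28.4 against 45.4 and 42.9 CPM (0.53), each without overlap. With the block Mrto4, Noc2l and Npm1 were higher in cKO (0.55, 0.53 and 0.56), 3 of 44 where 2.01% of all genes were. Over the members, 30 were above without overlap and 1 below (17.7% of all genes each), with a median of 0.29 against -0.02. Summed markers were lower in cKO without overlap for B cells (4272 to 4654 against 3505 to 3719 CPM over 6 genes) and conventional dendritic cells (76.8 to 93.7 against 54.1 to 54.6 CPM over 6). Those of plasmacytoid dendritic cells were lower too (240 to 325 against 178 to 222 CPM over 5). Their part in the class values was not tested. In the total sort the share of UMIs in cycling GC B-like cells was 1.30 and 0.982 times control within batches 1 and 2, from 35 and 30 control and 126 and 155 cKO cells. The 1 called gene of the other lists was the snoRNA host Snhg15 (10.5 and 12.1 against 25.3 and 27.0 CPM, 1.21, SE 0.21, adjusted p = 0.0321).

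Eif3e and Myc overlapped between genotypes in both GC classes. Eif3e stood at 255 and 344 CPM in control and 301 and 343 CPM in cKO outside the cycle and at 245 and 303 against 260.1 and 311 CPM within it. These GC counts depended on how the classes were drawn. With classes built from control cells, 324 and 295 cKO cells fell in the non-cycling and 663 and 474 in the cycling GC class, and 37 and 38 members were called as higher, where 33.5% and 27.1% of all genes were called in either direction. Median log2 fold changes were then 1.33 and 1.02.

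In the T cells of total splenocytes, outside the lineage in which Cγ1Cre acts, naive and Tfh-like classes were compared, and the direction found for Tfh-like cells was lost with classes built from control cells. Naive CD4 T-like cells gave 0.343% and 0.402% of UMIs to the 44 genes in control and 0.382% and 0.456% in cKO libraries, 1.11 and 1.13 times control within batches, and naive CD8 T-like cells 0.372% and 0.425% against 0.408% and 0.497%, 1.10 and 1.17 times. Tfh-like cells, which help GC B cells, gave 0.439% and 0.779% in control and 0.338% and 0.419% in cKO, 0.768 and 0.538 times. The control Tfh-like class held only 51 and 23 cells, against 361 and 646 in cKO. Relative to naive CD4 T-like cells of the same library, the Tfh-like share was 1.61 ± 0.46 times in control and 0.902 ± 0.025 times in cKO (SD, n = 2 each). Eif3e overlapped between genotypes in each of these 3 classes, for example at 253 and 249 CPM in control and 227 and 292 CPM in cKO Tfh-like cells.

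In naive CD4 T-like cells 0 members were called by edgeR, where 0.0583% of 10295 genes were, with 0 at an unadjusted p below 0.05 and 0 in DESeq2. Polr1b (7.60 and 7.34 against 11 and 9.93 CPM), Wdr12 (45.6 in both controls against 54.1 and 67.2 CPM), Wdr75 (32.6 and 35.9 against 40.2 and 48.3 CPM) and Tcof1 (119.8 and 134 against 143 and 201 CPM) had the smallest p values and no overlap, with log2 fold changes of 0.48, 0.41, 0.37 and 0.44. Of the members 14 were above without overlap (13.7% of all genes) and none below (12.6%), with a median of 0.22 against 0.00. With the block Nop56 was higher (0.47, SE 0.11, adjusted p = 0.0391), where 1.73% of all genes were.

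Naive CD8 T-like cells likewise gave 0 members called, where 0.0987% of 11145 genes were (0.0808% as higher and 0.0179% as lower), with 0 at an unadjusted p below 0.05 and 0 in DESeq2. Mrto4 stood at 28.8 and 36.9 CPM in control and 39.2 and 50 CPM in cKO (0.44, SE 0.25), Tcof1 at 116 and 139 against 149 and 211 CPM (0.50) and Dkc1 at 44.9 and 66.4 against 67.0 and 87.6 CPM (0.47), without overlap. Nhp2 overlapped (52.1 and 64.8 against 62.0 and 94.7 CPM). Of the members 12 were above (14.4% of all genes) and 1 below (14.0%) without overlap. With the block 6 members were higher, where 4.09% of all genes were: Dkc1 (0.48), Tcof1 (0.48), Mrto4 (0.44), Nhp2 (0.40), Nolc1 (0.36) and Ncl (0.30). NK cell markers summed to 338 to 487 CPM in control and 476 to 1484 CPM in cKO libraries of this class over 5 genes. Myeloid markers over 8 genes did not overlap, at 179 to 183 against 193 to 217 CPM. The part of both lists in these values was not tested. The naive classes were also drawn from different clusters, with 97.4% of control CD4 cells in T cell cluster 0 and 74.5% of cKO ones in T cell cluster 4.

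In Tfh-like cells 0 members were called by edgeR, where 0.597% of 9207 genes were, 7 had an unadjusted p below 0.05 (661 of all genes) and DESeq2 called 0. Utp20, a small subunit processome scaffold, had the smallest p, at 58.5 and 87.0 CPM in control and 33.8 and 31.1 CPM in cKO (-1.09, SE 0.37, adjusted p = 0.333). Tsr1 (26 and 75.4 against 13.4 and 19.7 CPM, -1.34), Nop56 (84.5 and 203 against 50.1 and 73.0 CPM, -1.11) and Mrto4 (45.5 and 116 against 29.7 and 35.1 CPM, -1.14) also had no overlap, and in each the batch 2 control library, with 23 cells, stood far above the batch 1 one. Of the members 24 were below without overlap (15.7% of all genes) and 1, Rcl1, above (19.8%), with a median of -0.56 against 0.01 over all genes. With the block 5 members were lower, where 1.77% of all genes were: Tsr1 (-1.46), Mrto4 (-1.16), Nop56 (-1.11), Nop58 (-0.96) and Ncl (-0.78).

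The control Tfh-like class was small, and the difference moved with the libraries and the classes used. Without the control library of batch 2 the median was -0.22, and without that of batch 1 it was -0.81, each fit with 1 control library left. With classes built from control cells, which put 175 and 214 control cells in the class, it was 0.03, and without centring within batch -0.57. At a clustering resolution of 1.5 only 1 control library was left, so its value of 0.22 has no control replicate. Myc in Tfh-like cells stood at 75.8 and 40.6 CPM in control and 28.9 and 35.8 CPM in cKO (-0.95, SE 0.38, adjusted p = 0.529). Side by side, 10 members, none of them called without the block, were above without overlap in naive CD4 and below in Tfh-like cells (22.7%, against 2.61% of all genes), and 9 in naive CD8 and Tfh-like cells (20.5% against 2.49%). Both counts held 6 members, namely Ddx21, Gnl3, Nob1, Nop2, Tcof1 and Tsr1. The 3 classes come from the same 4 libraries, and the difference between them was not tested.

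**Figure D5:**
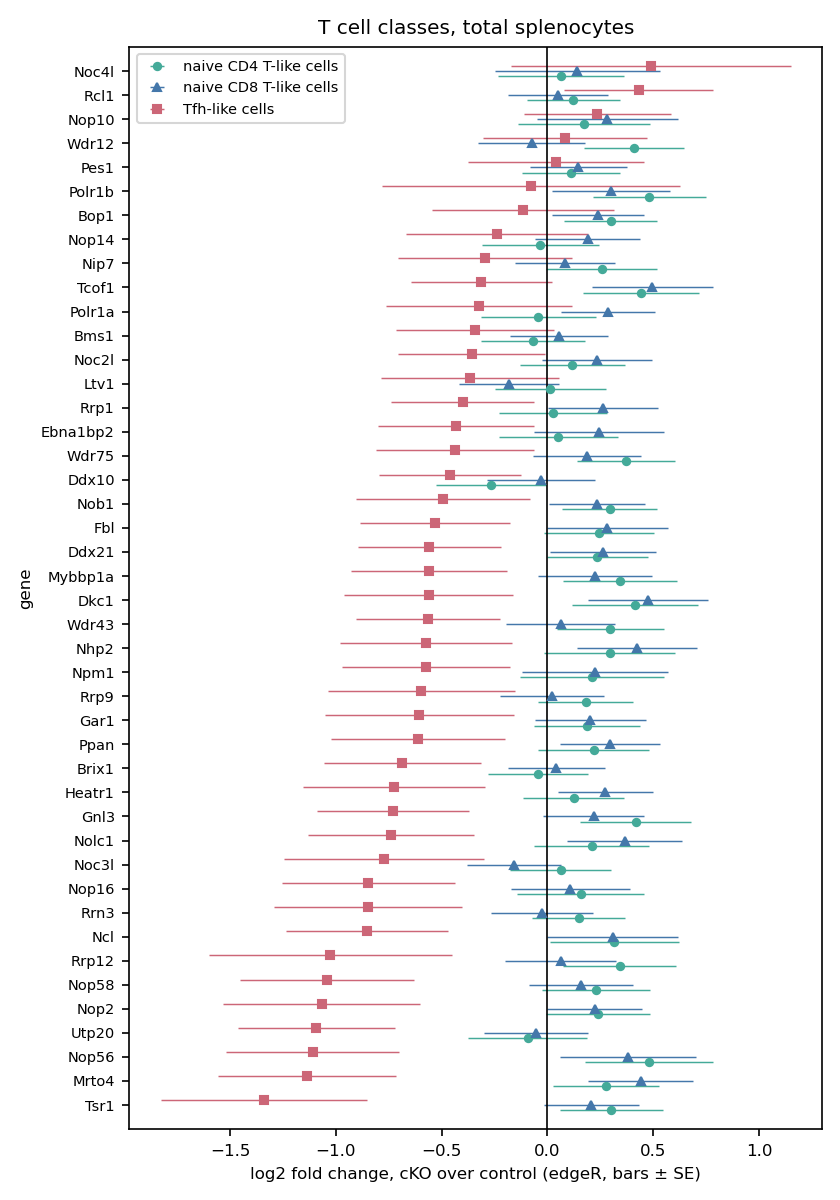
Log2 fold change of cKO over control (x axis, bars ± SE from edgeR) for the 44 genes (y axis, ordered by the Tfh-like value) in 3 T cell classes of total splenocytes, green circles for naive CD4 T-like, blue triangles for naive CD8 T-like and red squares for Tfh-like cells. Most Tfh-like squares lie left of 0 (median -0.56) with bars wider than those of the naive classes, whose medians were both 0.22.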

How the data were processed

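Single-cell libraries of mouse splenocytes (2 genotypes, 2 sorts, 2 batches) were made by the authors with the SeekOne DD 3′ kit and deposited as matrices of raw UMI counts per gene and cell, 1 per library and not pooled over batches. The submitters' processing notes name the builds GRCm38 and mm10, while for aligner, counter and annotation nothing is given in the sources used here. In the study's methods cells with too few UMIs or genes or too many mitochondrial reads were excluded, no doublet removal is stated and replicates were merged.

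From the counts as deposited, 83704 of 83967 barcodes were kept, by limits of over 200 UMIs, over 100 genes and no more than 10% of UMIs from mitochondrial genes. Cells were clustered (2000 variable genes without the 44 members and the other listed genes, 30 principal components, 20 neighbours, centring within batch, Leiden at resolution 1.0, igraph 0.11.9), and clusters were named from fixed marker lists, with the largest unnamed B cluster and the clusters shared by genotypes singled out after the clusters were seen. Simulated doublets marked 0.707% to 2.14% of cells per library, in YFP+ libraries by the median threshold of the total libraries since their own marked at most 0.0296%, and marked cells were removed only in an alternative. Counts were summed per library and class (at least 20 cells) and tested with edgeR 4.0.16 (quasi-likelihood, robust, TMM, filterByExpr, R 4.3.3) within a sort, with Benjamini-Hochberg adjustment over all genes tested at 0.05. SE is the absolute log2 fold change over the square root of F. DESeq2 1.42.0, other scaling, filters, classes and each library left out were alternatives, and the settings that use or leave out single clusters, the unnamed cluster or total Myc-high cells were chosen after seeing the data. On simulated data with 200 changed genes per comparison, changes of 2-fold were recovered in 12% to 55% and of 4-fold in 72% to 95% of genes.

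Batch numbers in the labels mark shared batches, and deviations of same-batch libraries from their group means correlated at 0.24 to 0.75 over genes in the 9 planned comparisons, so the fit with the replicate block is given where it changed a call. Within a class that fit leaves few degrees of freedom for the error, so its calls lean on the error pooled over genes. Each library is a separate pool of mice within a sort. Replicate libraries of a group differed beyond sampling noise in every class tested. The rule for the members reads no measured value, but the members, gene lists and comparisons were proposed with earlier results of these data known. Any member may be named. Values in every library are given for the 8 members with the highest mean CPM, for up to 6 called members per direction or otherwise the 4 with the smallest p, for up to 3 called genes per direction of the other lists, and for Myc and Eif3e. The 7 other lists are RNA polymerase I, small subunit, large subunit, RNA exosome, snoRNA host, Myc network and p53 response genes. Promoters are from RefSeq on GRCm38.p6.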

Additional observations from a re-analysis of the deposited data

Results flagged for a closer look

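The genotype difference in Myc-high activated B-like cells differed from that in resting follicular B-like cells of the YFP+ sort, by a tested interaction, for Nop58 (0.71), Noc2l (0.47), Nop56 (0.41) and Nop10 (-0.47) among the members and for Eif3e (-1.07), on the log2 scale. These are 4 of 44 members, where 13.5% of all genes were called. Fewer were called when either control library was left out, which leaves 1 in that group. For Nop58, Noc2l and Nop56 the sign turned when the class was limited to the cluster that both genotypes share.

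Other members had both cKO libraries above both controls in one class and below them in another. These differences were not tested, and outside the cycling cells beyond the GC class no member passed edgeR's test within a class in the fit without the replicate block and with the classes as first drawn. Beside each count stands the percent of members and of all genes with the same pattern. In the YFP+ sort, 3 members were higher in cycling cells outside the GC class and lower in resting cells (Polr1a, Wdr43, Ddx10, 6.82% against 3.54% of all genes). Another 4 were higher in these cycling cells and lower in Myc-high cells (Polr1a, Heatr1, Bop1, Ppan, 9.09% against 2.41%), and 1, Bms1, was lower in cycling GC B-like cells (2.27% against 2.13%). Against non-cycling GC B-like cells, 2 members were lower in Myc-high cells (Bop1, Ppan, 4.55% against 1.93%) and 1 in cycling GC B-like cells (Bms1, 2.27% against 0.936%). From cycling GC B-like cells, 1 member was lower in resting (Ddx10, 2.27% against 1.94%) and 2 in Myc-high cells (Bop1, Ppan, 4.55% against 2.20%). In total splenocytes 10 members were higher in naive CD4 and lower in Tfh-like cells (22.7% against 2.61%), 9 in naive CD8 against Tfh-like cells (20.5% against 2.49%), 3 in resting B against Tfh-like cells (Tcof1, Ddx21, Rrp12, 6.82% against 2.07%), and the same 3 in Myc-high B against Tfh-like cells (6.82% against 1.71%). The Tfh-like median of -0.56 was 0.03 with classes built from control cells and -0.57 without centring within batch.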

How the results depend on the processing

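Counts of members called and the Myc-high to resting ratio of control YFP+ cells were recomputed under each alternative, and 164 stayed near the reported value while 30 did not. Near means within 1.5 times for counts (a count of 0 had to stay 0) and within 1 SD of the 2 libraries for the ratio. Of the values of single genes, 1031 kept their direction and their side of the threshold, 45 newly passed it, 87 no longer did and 19 changed sign. With the replicate block the counts were 3 (YFP+ resting), 7 (YFP+ Myc-high), 1 (GC not cycling), 3 (GC cycling), 10 (total resting), 1 (CD4), 5 (Tfh-like), 6 (CD8) and 1 (total Myc-high), and it moved no other count it was run for by over 1.5 times. The class interaction, whose fit has a term for each library, was not run with it. With classes built from control cells the counts were 0 (cycling outside the GC class) and 37 and 38 (GC not cycling and cycling), and all members called in the class interaction were negative. The Myc-high to resting ratio was then 2.87 rather than 3.19 (3.53 without centring within batch). Cluster 16 alone gave 1 for cycling cells, cluster 8 alone 0 and leaving out cluster 10 gave 0 (where Mxd3 turned to 0.024), and cluster 4 alone 8 for the interaction. For YFP+ Myc-high cells DESeq2 gave 1, no filter on low counts 1 and a cycling limit of 0.4% gave 2. For the interaction DESeq2 gave 2, no filter 2, resolution 1.5 gave 7 and no centring 1. The DESeq2, filter, cycling limit, resolution and centring counts stand without the share of all genes called in the same fit. They are thus not read as a result about the members.

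Leaving out each library in turn leaves 1 library in a group, so counts of members from these fits are not given. They moved in cycling GC B-like cells, in Tfh-like cells, for the class interaction and in cycling cells outside the GC class. In the other comparisons of YFP+ and total classes they did not move. In YFP+ resting cells Nhp2 ranged from -0.079 (without the cKO library of batch 2) to 0.66 over libraries left out. In Myc-high cells signs turned with classes built from control cells for Noc4l (-0.042) and Nip7 (-0.037), and in cluster 4 alone for Noc4l (-0.043), Rrp12 (-0.046), Nip7 (-0.017) and Cdkn1a (-1.40). In Tfh-like cells Utp20 turned with classes built from control cells (0.44), and Tsr1 (0.14) and Mrto4 (1.67) at resolution 1.5. In the interaction Nop58 turned (-0.064 with classes from control cells, -0.077 in cluster 4), as did Noc2l (-0.067, -0.062), Nop56 (-0.23, -0.11) and, in cluster 4, Zmat3 (-0.080) and Ccng1 (-0.032). The cause was not tested. Scaling by total UMIs without TMM moved the median of all genes to -0.10 in YFP+ resting and -0.11 in YFP+ Myc-high cells, with the members at -0.05 and -0.08. Precision was limited by 2 libraries per group and, in Tfh-like cells, by 51 and 23 control cells.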
